A study of Homo sapiens with 12 samples.

Results

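The EGF receptor family, its ligands and its inhibitors were followed in BT-549 and MDA-MB-468, a pair of established cell lines from basal-like breast cancers. The list named 10 genes, the receptors EGFR, ERBB2 and ERBB3, the ligands AREG, EREG, HBEGF, TGFA and NRG1, and the inhibitors ERRFI1 and LRIG1, and every probe carrying one of these names was taken. In all, 24 of 47323 probes on the array belonged to 9 of the 10 genes, among 20046 genes named on the array. AREG had no probe with its name and was not analysed here. Of the 24 probes, 16 were kept for testing, each with a detection p under 0.01 on 3 or more of 12 arrays. These 16 probes read 8 genes, and the probe of EREG was not among them.

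The 12 Illumina HT-12 v4 arrays fell into 4 groups of 3, MDA-MB-468 cells given an siRNA against PRKCD (siPRKCD), MDA-MB-468 cells given a control siRNA (siControl), and BT-549 cells given either siRNA. PRKCD encodes protein kinase C delta, and the general transfection protocol of the study used siRNA at 40 nM for 72 h. The study gave the PRKCD siRNA to induce cell death, so changes that come with dying cells cannot be told apart from other responses. No second siRNA against PRKCD is labelled, so effects of the siRNA on other targets cannot be told apart either. The BT-549 medium held added insulin, so line and medium cannot be told apart. A legend in the study refers to the replicates as experiments. The labels give only replicate numbers, so the spread behind each p-value is that between numbered samples, whose cultures are not described further. Each line is a single established line, and bulk RNA was read, in which less transcript per cell and fewer cells that carry it cannot be told apart.

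ERBB receptors are tyrosine kinases in the cell membrane that pair up and phosphorylate each other when a ligand binds. EGFR binds HBEGF, TGFA, AREG and EREG, all made as membrane-anchored precursors that are cut free by proteases, while the neuregulin NRG1 binds ERBB3, and ERBB2 has no known ligand of its own and acts as a partner of the others. The system is held back by inhibitors that the signal itself can induce, among them ERRFI1 (also called MIG6), which binds the kinase domain of EGFR, and LRIG1, a membrane protein that promotes receptor degradation. In basal-like breast cancer EGFR is often abundant, and MDA-MB-468 is known for its amplified EGFR gene. DNA copy number was not measured here.

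The signal of the targeted gene, PRKCD, fell in both lines. Its detected probe read 7.29, 7.20 and 7.47 on the log2 scale on the MDA-MB-468 siPRKCD arrays, against 9.15, 9.13 and 8.82 on the siControl arrays, and 6.89, 6.67 and 7.01 on the BT-549 siPRKCD arrays, against 7.71, 7.73 and 7.76 on the siControl arrays. The groups did not overlap in either line. The log2 difference was -1.72 in MDA-MB-468 (limma, Benjamini-Hochberg adjusted p = 1.95e-07). It was -0.87 in BT-549 (adjusted p = 9.8e-05), where only 1 siPRKCD array of the 3 still detected it. Between 15616 and 17724 probes were detected per array. Epithelial markers marked MDA-MB-468, where 8 of 9 were detected on all arrays, against 1 of 9 in BT-549, and mesenchymal markers marked BT-549, with 2 of 7 detected on all arrays in MDA-MB-468, against 6 of 7 in BT-549. The endothelial markers PECAM1, VWF and CDH5 were detected on no array, nor were the leukocyte markers PTPRC and CD3E. The other leukocyte markers, CD79A and LYZ, were detected on 6 and 8 arrays, with group means of 6.91 to 6.95 and 6.96 to 7.03 on the log2 scale, close to the detection limit.

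The genes whose brightest probe changed with siPRKCD in at least 1 line were ERBB2, HBEGF, TGFA and ERRFI1, and their promoters are shown because these members are the ones the knockdown results turn on. Each runs from 250 bases before to 50 bases after the start that RefSeq lists on GRCh38.p14 (the first of 2 listed starts for TGFA). The locations are chr17:39687844-39688143 on the plus strand for ERBB2, chr5:140346554-140346853 on the minus strand for HBEGF, chr2:70553777-70554076 on the minus strand for TGFA and chr1:8026260-8026559 on the minus strand for ERRFI1. Capitals mark matches, on either strand, to the AP-1 motif TGANTCA, the CRE motif TGACGTCA, the GC box GGGCGG or the EGR motif GCGGGGGCG.
ERBB2: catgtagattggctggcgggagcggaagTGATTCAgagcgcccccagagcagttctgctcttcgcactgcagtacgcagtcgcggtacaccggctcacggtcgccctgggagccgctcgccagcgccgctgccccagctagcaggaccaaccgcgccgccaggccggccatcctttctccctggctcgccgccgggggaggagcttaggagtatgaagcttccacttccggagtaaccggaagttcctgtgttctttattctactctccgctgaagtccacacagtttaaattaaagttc
HBEGF: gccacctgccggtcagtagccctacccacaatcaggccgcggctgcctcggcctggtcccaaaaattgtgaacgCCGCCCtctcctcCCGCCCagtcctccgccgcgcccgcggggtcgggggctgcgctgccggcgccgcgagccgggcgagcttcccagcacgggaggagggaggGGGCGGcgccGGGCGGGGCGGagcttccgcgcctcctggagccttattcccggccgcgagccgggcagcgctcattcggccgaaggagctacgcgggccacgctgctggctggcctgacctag
TGFA: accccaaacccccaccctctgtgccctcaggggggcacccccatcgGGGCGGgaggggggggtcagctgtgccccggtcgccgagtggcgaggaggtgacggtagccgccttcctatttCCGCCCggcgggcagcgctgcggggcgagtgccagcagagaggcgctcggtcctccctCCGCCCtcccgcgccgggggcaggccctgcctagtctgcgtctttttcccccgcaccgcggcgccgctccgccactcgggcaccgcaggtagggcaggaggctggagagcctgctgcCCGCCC
ERRFI1: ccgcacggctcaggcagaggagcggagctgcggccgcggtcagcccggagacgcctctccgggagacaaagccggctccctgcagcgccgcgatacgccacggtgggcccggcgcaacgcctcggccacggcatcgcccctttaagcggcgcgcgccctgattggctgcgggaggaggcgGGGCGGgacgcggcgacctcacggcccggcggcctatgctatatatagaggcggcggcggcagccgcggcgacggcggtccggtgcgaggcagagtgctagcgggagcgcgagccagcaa
ERBB2 held a single AP-1 match, HBEGF 5 GC boxes, TGFA 4 GC boxes and ERRFI1 a single GC box, and no promoter of the 4 held a CRE or EGR match. Among 35116 promoters of the same length, 7.71% held the AP-1 motif, 1.85% the CRE, 45% the GC box and 5.07% the EGR motif. GC content was 75.0% for HBEGF, 75.3% for TGFA, 74.7% for ERRFI1 and 60.7% for ERBB2, against a median of 58.7% over all promoters, so the 3 promoters with GC boxes were also the GC-rich ones. These matches describe letters and not bound sites. Whether a listed start serves the transcript that the detected probe reads was not tested, so the ERBB2 window may not be the promoter behind its signal.

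The lines were first compared with each other. MDA-MB-468 had the higher signal of EGFR, ERBB3 and TGFA, and BT-549 that of NRG1, HBEGF and ERRFI1, on siPRKCD and on siControl arrays alike. On siControl arrays each of the 16 tested member probes differed between the lines at an adjusted p under 0.05, 10 higher and 6 lower in MDA-MB-468, where 55.9% of all 19439 tested probes were called, 27.1% higher and 28.9% lower. On siPRKCD arrays 12 of the 16 did, 7 higher and 5 lower, where 56% of all probes were called, 27.6% higher and 28.4% lower. Of the 16 probes, 8 were detected on no array of one line. They entered the test only through the other line, which builds a difference in. The counts are therefore a description, and between the lines these 8 probes are given bounds without a p-value.

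Of the receptors, EGFR stood far apart. Its brightest probe, ILMN_1798975, annotated to the full-length receptor transcript, read 12.45, 12.68 and 12.35 in MDA-MB-468 siPRKCD cells and 12.59, 12.50 and 12.49 in MDA-MB-468 siControl cells, against 8.28, 8.20 and 8.25 in BT-549 siPRKCD cells and 8.47, 8.24 and 8.18 in BT-549 siControl cells. The 6 MDA-MB-468 arrays all lay above the 6 BT-549 arrays, and within a line the siRNA groups overlapped. The log2 difference between the lines was 4.25 on siPRKCD arrays (19.0-fold, SE 0.10, limma adjusted p = 4.99e-14) and 4.23 on siControl arrays (18.7-fold, SE 0.10, adjusted p = 4.08e-14). By its difference on siControl arrays it ranked 60 of 19439 probes from the top. The second probe, ILMN_1696521, annotated to a shorter EGFR transcript that encodes a soluble form, differed by 3.25 on siPRKCD arrays and 2.85 on siControl arrays. The remaining 2 EGFR probes were not detected on any BT-549 array. ILMN_1728858, annotated to another shorter transcript, was at least 1.33-fold higher in MDA-MB-468 siControl cells. ILMN_1755535, annotated to the same transcript as ILMN_1696521, was at least 1.11-fold higher there. The 2 probes of that transcript read unlike levels, with means of 7.05 for ILMN_1755535 and 10.18 for ILMN_1696521 on MDA-MB-468 siControl arrays. What each probe detects beyond its annotated transcript was not tested.

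**Figure D1:**
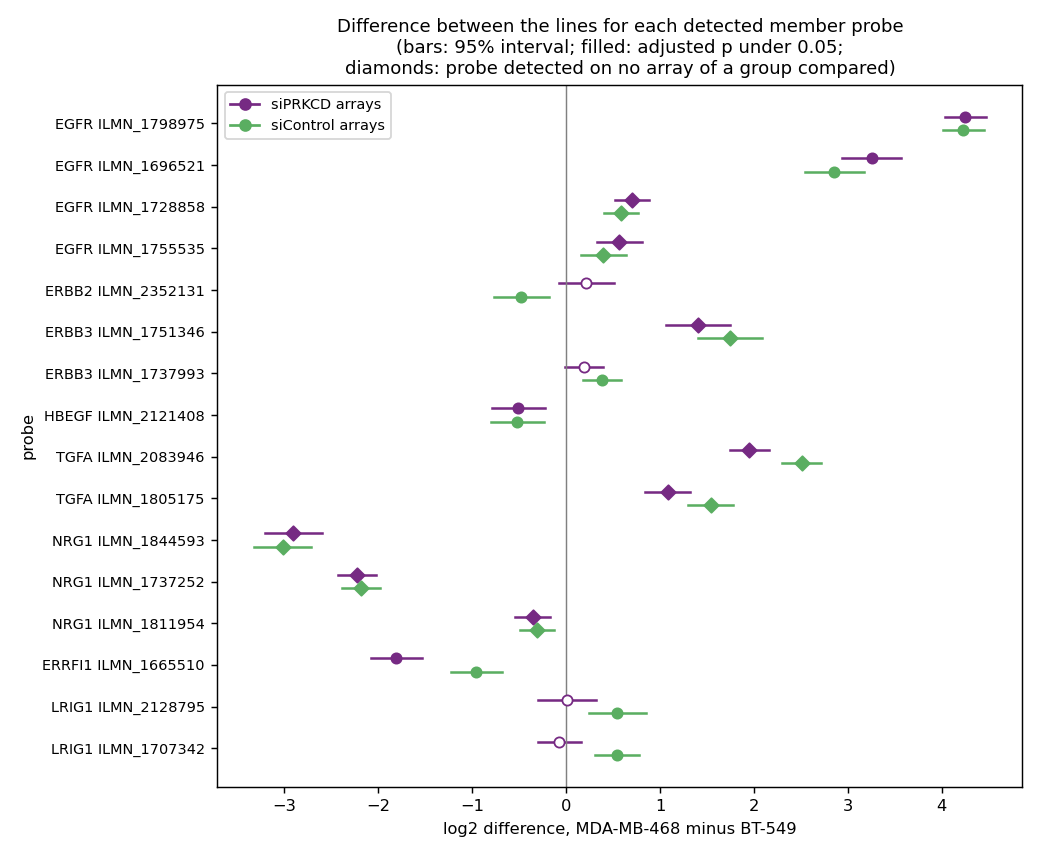
Log2 difference between the lines (MDA-MB-468 minus BT-549, horizontal axis) for the 16 tested member probes (rows), on siPRKCD arrays (purple) and siControl arrays (green), with 95% intervals and filled points for an adjusted p under 0.05. Diamonds mark probes detected on no array of one line, where only the bounds in the text hold, as for NRG1 on the left and TGFA on the right. EGFR reaches 4.25 and 4.23, and ERBB2, ILMN_1737993 of ERBB3 and both LRIG1 probes are open on siPRKCD arrays and filled on siControl arrays.

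ERBB2 and ERBB3 differed between the lines in opposite directions. ERBB3, the receptor of neuregulins, read 7.93, 8.65 and 7.89 in MDA-MB-468 siPRKCD cells and 8.24, 8.35 and 8.59 in MDA-MB-468 siControl cells with ILMN_1751346, while this probe was not detected on any BT-549 array. The signal in MDA-MB-468 was at least 2.30-fold higher on siPRKCD arrays and at least 2.80-fold higher on siControl arrays. These bounds set the mean of the bright line against the lowest signal that counted as detected on the arrays of the other. A second ERBB3 probe, ILMN_1737993, detected on 1 array of 3 in each BT-549 group, was higher in MDA-MB-468 by 0.38 on siControl arrays (adjusted p = 0.00276), while its difference of 0.19 on siPRKCD arrays was not called (adjusted p = 0.0953, and 0.0396 with neqc background correction). ERBB2, read by 1 of its 3 probes, was lower in MDA-MB-468 on siControl arrays (log2 difference -0.48, SE 0.14, adjusted p = 0.00823). On siPRKCD arrays the difference was 0.21 and did not pass the test (adjusted p = 0.206, 95% interval -0.08 to 0.51). The other 2 ERBB2 probes and 1 of the 3 ERBB3 probes were detected on no array.

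Among the ligands, TGFA and NRG1 divided the lines. Neither TGFA probe was detected on any of the 6 BT-549 arrays. ILMN_2083946 was at least 3.04-fold higher in MDA-MB-468 on siPRKCD arrays and at least 4.66-fold higher on siControl arrays, and ILMN_1805175 at least 1.71-fold and at least 2.43-fold. NRG1 went the other way. Its brightest probe, ILMN_1844593, was not detected on any MDA-MB-468 array and read 9.43, 9.77 and 9.39 in BT-549 siPRKCD cells and 9.23, 9.90 and 9.56 in BT-549 siControl cells. It was at least 6.17-fold higher in BT-549 than in MDA-MB-468 on siPRKCD arrays and at least 6.28-fold higher on siControl arrays. A second NRG1 probe, ILMN_1737252, showed the same split, at least 3.80-fold and at least 3.74-fold, the next one was at least 1.06-fold and at least 1.02-fold higher in BT-549, and the other 4 of its 7 probes were detected on no array.

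HBEGF was detected in both lines and was lower in MDA-MB-468, with a log2 difference of -0.51 on siPRKCD arrays and -0.52 on siControl arrays (SE 0.13 each, adjusted p = 0.00406 and 0.00343). With median centring in place of quantile normalization, the difference on siPRKCD arrays lost its call (adjusted p = 0.0652). EREG, which encodes epiregulin, read between 6.68 and 6.84 on all 12 arrays and was not detected on any of them, so no level can be given for it in either line. On chromosome 4 EREG lies between EPGN and AREG, followed by BTC. Of these, BTC was kept for testing, but it was detected on 3 MDA-MB-468 arrays and on no BT-549 array and entered the test only through MDA-MB-468, so no difference between the lines is given.

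**Figure D2:**
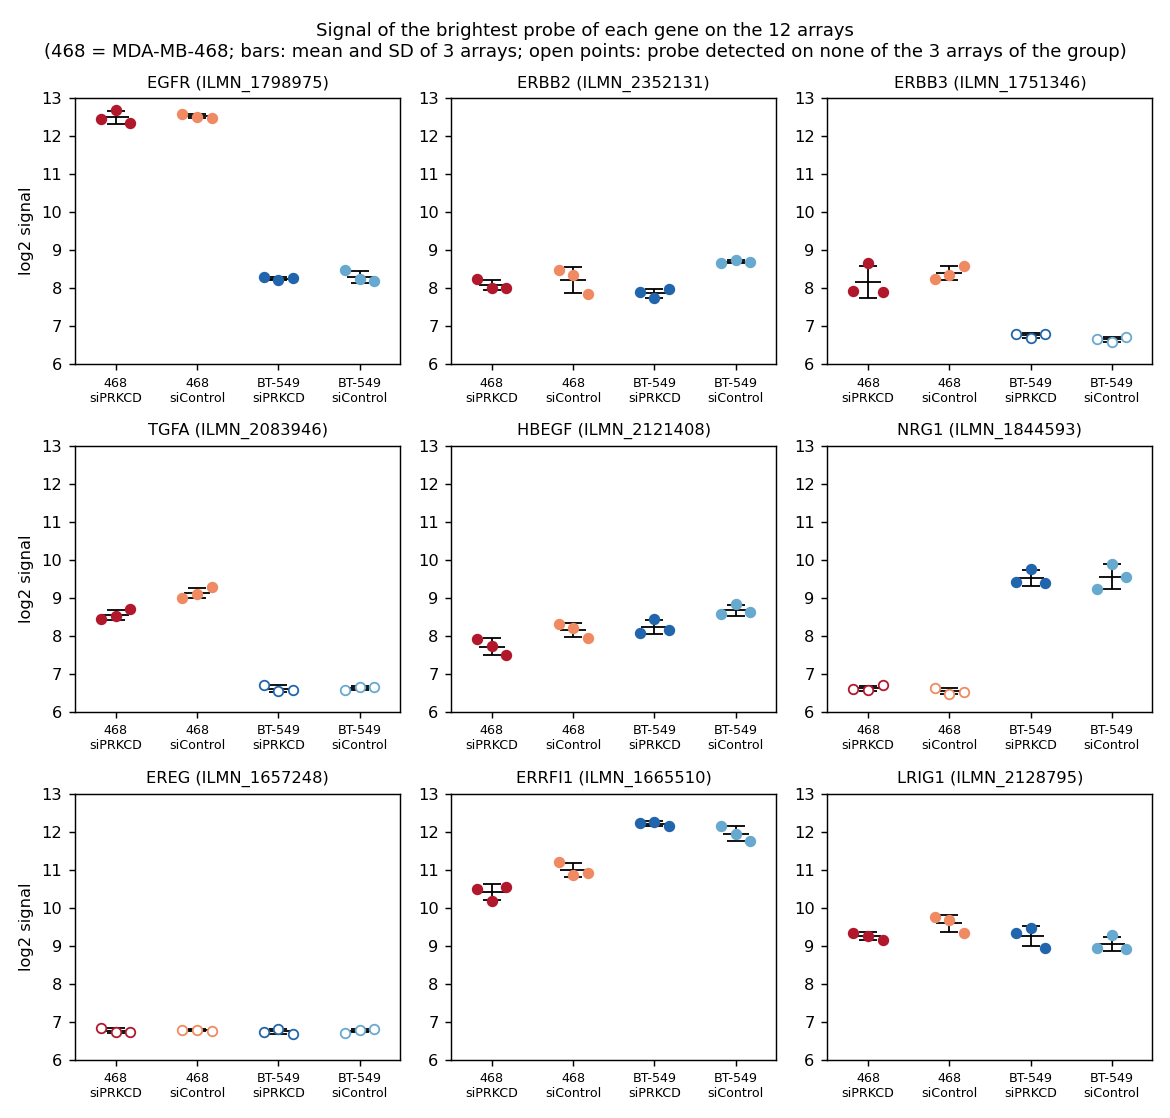
Log2 signal (vertical axes) on each of the 12 arrays for the brightest probe of the 9 genes, in the groups MDA-MB-468 siPRKCD, MDA-MB-468 siControl, BT-549 siPRKCD and BT-549 siControl, with the mean and SD of 3 arrays. Open points mark groups in which the probe was detected on no array, as for ERBB3 and TGFA in BT-549, NRG1 in MDA-MB-468 and EREG in every group.

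Both inhibitors were detected on every array of both lines. ERRFI1 had a strong signal in both lines and was lower in MDA-MB-468, with a log2 difference of -1.81 on siPRKCD arrays (3.51-fold lower, SE 0.13, adjusted p = 1.03e-08) and -0.96 on siControl arrays (1.94-fold lower, SE 0.13, adjusted p = 1.11e-05). LRIG1 was higher in MDA-MB-468 on siControl arrays with both of its probes, by 0.55 with ILMN_2128795 and 0.54 with ILMN_1707342 (adjusted p = 0.00425 and 0.000541). On siPRKCD arrays the same probes differed by 0.01 and -0.07 (adjusted p = 0.965 and 0.596). The call of ILMN_2128795 on siControl arrays was lost with median centring (adjusted p = 0.0714).

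The genes beside EGFR on chromosome 7 were higher in MDA-MB-468 too. Of 13 listed neighbours 9 could be measured, and all 9 were called higher in MDA-MB-468 on siPRKCD and on siControl arrays, where 30.2% and 29.4% of the 11459 genes read from their brightest probe were called higher. Their median log2 difference was 1.11 on siPRKCD arrays and 1.28 on siControl arrays, against -0.01 and -0.02 over all genes. LANCL2, the gene next to EGFR on one side, differed by 4.06 on siPRKCD arrays and 3.69 on siControl arrays (adjusted p = 5.89e-13 and 1.53e-12), and VOPP1, the next one out, by 2.51 and 2.29. Farther along, PSPH, an enzyme of serine synthesis, differed by 1.91 on siControl arrays, and CCT6A, a chaperonin subunit, by 1.48. ZNF713, MRPS17 and NIPSNAP2, which lie nearer to EGFR than PSPH, differed by less on these arrays, at 0.76, 0.95 and 1.28. SUMF2, beyond CCT6A, differed by 0.71. The differences thus did not fall steadily along this order. CHCHD2, the farthest gene listed, had the smallest difference of the 9, at 0.51. SEC61G, the neighbour on the other side, had no named probe and was not analysed here, and VSTM2A, SEPTIN14 and PHKG1 were not detected. Whether these differences follow gene copy number was not tested.

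**Figure D3:**
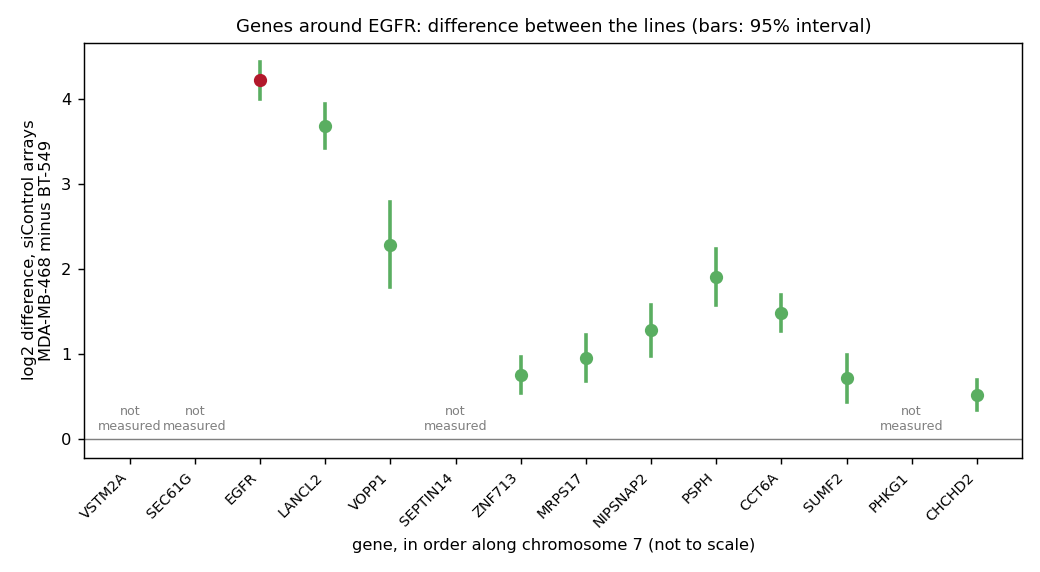
Log2 difference between the lines on siControl arrays (MDA-MB-468 minus BT-549, vertical axis) for EGFR (red) and its listed neighbours (green) in their order along chromosome 7, with 95% intervals and even spacing. All measured genes lie above 0, with 4.23 for EGFR, 3.69 for LANCL2 and 0.51 for CHCHD2.

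In MDA-MB-468 cells, siPRKCD lowered the signal of the ligands TGFA and HBEGF and of the inhibitor ERRFI1, while the brightest probes of EGFR, ERBB2, ERBB3 and LRIG1 did not pass the test. A dimmer probe of LRIG1 fell. Of 16 member probes, 5 fell and 1 rose, which was a second EGFR probe. Over all 19439 probes 21.6% were called, 11% lower and 10.7% higher. The median log2 difference of the member probes was -0.12, against 0.01 over all probes.

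TGFA fell with both of its probes. ILMN_2083946 read 8.44, 8.54 and 8.70 on siPRKCD arrays, against 9.01, 9.09 and 9.29 on siControl arrays. Every siPRKCD array lay below every siControl array. The log2 difference was -0.57 (1.48-fold lower, SE 0.10, limma adjusted p = 0.000744) and kept its call in every alternative tried. ILMN_1805175 read 7.52, 7.71 and 7.96, against 8.29, 8.28 and 8.01, again without overlap, with a difference of -0.46 (SE 0.11, adjusted p = 0.00872) that was lost only with median centring (adjusted p = 0.0788).

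HBEGF, the heparin-binding ligand of EGFR and ERBB4, read 7.93, 7.73 and 7.50 on siPRKCD arrays, against 8.30, 8.22 and 7.95 on siControl arrays. The highest siPRKCD array lay just below the lowest siControl array, and the log2 difference was -0.44 (1.36-fold lower, SE 0.13, adjusted p = 0.027). This call was the least steady of those that fell. It was lost with median centring, without the filter on dim probes, with the 6 arrays alone, and without siPRKCD replicate 2 or 3 or siControl replicate 1 or 2 (adjusted p 0.0691 to 0.109 without an array).

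Of the inhibitors, ERRFI1 fell, and LRIG1 did so with 1 of its 2 probes. ERRFI1 read 10.49, 10.18 and 10.56 on siPRKCD arrays, against 11.20, 10.87 and 10.92 on siControl arrays. The groups did not overlap, and the log2 difference was -0.59 (1.5-fold lower, SE 0.13, adjusted p = 0.00417), lost only with median centring (adjusted p = 0.109). LRIG1 read 7.88, 7.75 and 7.66 with ILMN_1707342 on siPRKCD arrays, against 8.31, 8.30 and 8.34 on siControl arrays, where the 3 values lay close together. The difference was -0.55 (1.46-fold lower, SE 0.11, adjusted p = 0.00219). The brighter LRIG1 probe, ILMN_2128795, read 9.35, 9.27 and 9.16, against 9.76, 9.69 and 9.34, with 1 siPRKCD array above the lowest siControl array. Its difference of -0.34 did not pass the test (adjusted p = 0.113), nor with the replicate number as a block in MDA-MB-468 alone, where the numbers were taken to pair the arrays (adjusted p = 0.0733). It did with a block over both lines (adjusted p = 0.0278) and without siControl replicate 3 (adjusted p = 0.0362).

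**Figure D4:**
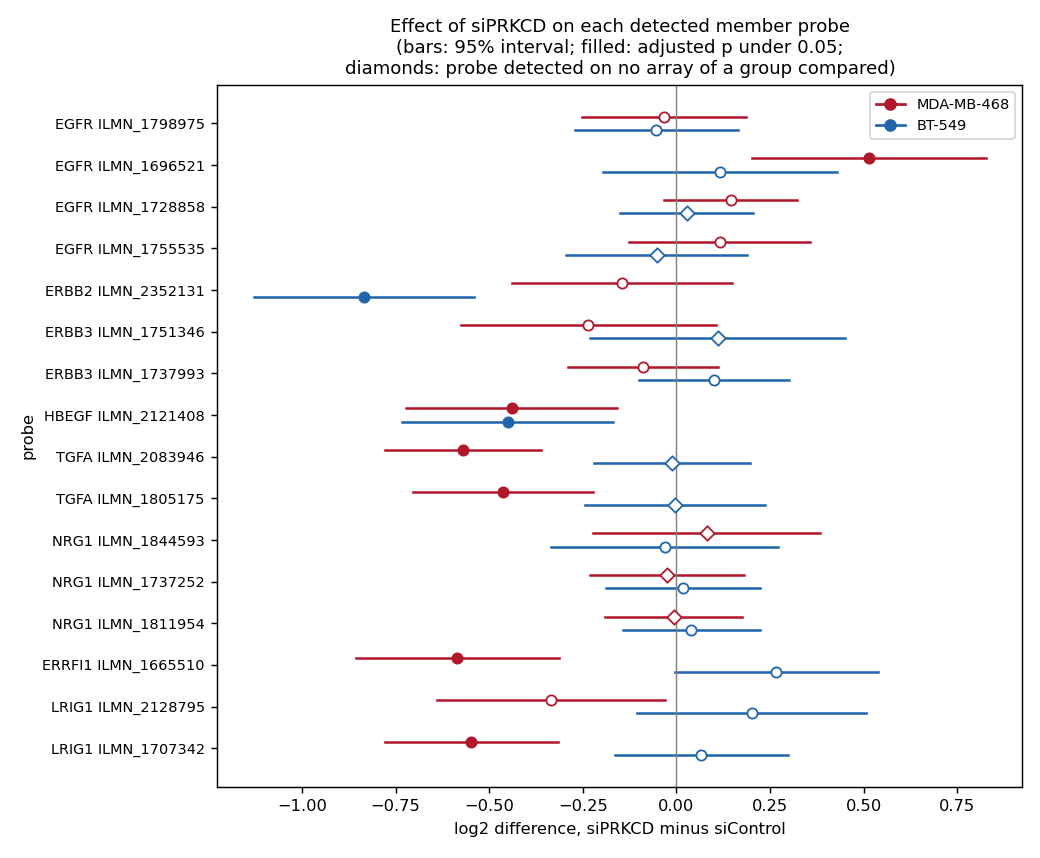
Log2 difference between siPRKCD and siControl cells (horizontal axis) for the 16 tested member probes (rows) in MDA-MB-468 (red) and BT-549 (blue), with 95% intervals, filled points for an adjusted p under 0.05 and diamonds where the probe was detected on no array of a group compared. The red filled points lie at or left of -0.44 apart from the EGFR probe at 0.51, and the blue ones are ERBB2 at -0.83 and HBEGF at -0.45.

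Of the receptors, EGFR gave different values with different probes. The brightest probe, whose array values stand above, had a log2 difference of -0.03 (95% interval -0.25 to 0.19, adjusted p = 0.87). ILMN_1696521 read 10.74, 10.89 and 10.45 on siPRKCD arrays, against 10.54, 10.18 and 9.83 on siControl arrays, where the ranges overlapped. Its difference was 0.51 (1.43-fold higher, SE 0.15, adjusted p = 0.0208). The call was lost with median centring (log2 difference 0.55, SE 0.168, adjusted p = 0.0524) and with the 6 arrays alone. It was also lost without siPRKCD replicate 1 or 2 or siControl replicate 2 or 3 (log2 difference 0.34 to 0.51, adjusted p 0.0566 to 0.101). The gap between this probe and the brightest one was -1.71, -1.79 and -1.90 on siPRKCD arrays, against -2.06, -2.33 and -2.66 on siControl arrays, an exact two-sided permutation p of 0.1, the smallest that 3 against 3 arrays can give, for a pair of probes chosen after their values were seen. ILMN_1755535, annotated to the same transcript as ILMN_1696521, differed by 0.12 and was not called (adjusted p = 0.539), so the 2 probes of that transcript did not agree on a rise. ILMN_1728858 differed by 0.15 and was not called.

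ERBB2 and ERBB3 were not called in MDA-MB-468. ERBB2 read 8.23, 7.99 and 8.0 on siPRKCD arrays, against 8.48, 8.35 and 7.83 on siControl arrays, and the ranges overlapped. Its log2 difference was -0.14 (95% interval -0.44 to 0.15, adjusted p = 0.528). That of ERBB3 was -0.24 (95% interval -0.58 to 0.10, adjusted p = 0.342), with siPRKCD replicate 2, at 8.65, above all siControl arrays. For both, the absence of a call hung on 1 array, since ERBB2 was called lower without siControl replicate 3 (adjusted p = 0.0375) and ERBB3 without siPRKCD replicate 2 (adjusted p = 0.0085). NRG1 was not detected in this line.

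Part of the epithelial markers fell alongside these ligands and inhibitors. Of 9 epithelial markers 5, KRT5, KRT8, KRT18, KRT19 and CDH1, were called lower with siPRKCD in MDA-MB-468 and none higher, where 13.1% of genes were called lower (median log2 difference -0.36, against 0.00 over all genes), and their summed signal ranged between 17757 and 21732 on siPRKCD arrays and between 22766 and 24993 on siControl arrays. KRT5, a basal keratin, had the largest difference of the list, at -1.59 (adjusted p = 2.56e-06), and EPCAM, CLDN4, CLDN7 and ESRP1 were not called, with 0.11, 0.11, -0.36 and -0.18. The calls of KRT18 and KRT19 were lost with neqc (adjusted p = 0.0599 and 0.133), with median centring (adjusted p = 0.247 and 0.0853) and with the 6 arrays alone, which leaves 3 of 9. KRT18 also lost its call without siPRKCD replicate 1 or 2 or siControl replicate 2 (adjusted p 0.0521 to 0.0841), and KRT19 without the filter and without siPRKCD replicate 3, any MDA-MB-468 siControl replicate or BT-549 siControl replicate 1 or 2 (adjusted p 0.0524 to 0.161 without an array). CLDN7 gained a call with the replicate block in MDA-MB-468 alone (adjusted p = 0.0314). Their part in the member results was not tested.

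In BT-549 cells, siPRKCD lowered ERBB2 and HBEGF, and no member probe rose. These were 2 of 16 probes, where 21.5% of all 19439 probes were called, 11.4% lower and 10.1% higher. ERBB2 read 7.89, 7.73 and 7.96 on siPRKCD arrays, against 8.65, 8.74 and 8.70 on siControl arrays. The groups were well apart and each was narrow. The log2 difference was -0.83 (1.78-fold lower, SE 0.14, limma adjusted p = 0.000606), and the call was kept in every alternative tried, with adjusted p-values of 4.36e-05 to 0.00489. By its difference it ranked 302 of 19439 probes from the bottom.

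HBEGF read 8.09, 8.44 and 8.15 on BT-549 siPRKCD arrays, against 8.57, 8.83 and 8.63 on siControl arrays. No siPRKCD array reached the lowest siControl array, and the log2 difference was -0.45 (1.37-fold lower, SE 0.13, adjusted p = 0.0241). The call was lost with neqc background correction (adjusted p = 0.0563) and with median centring (adjusted p = 0.0528). There the difference was larger, at -0.60 (SE 0.203) and -0.56 (SE 0.175), but so was the SE. It was also lost without siPRKCD replicate 1 or 3 or siControl replicate 2 (log2 difference -0.37 to -0.42, adjusted p 0.0764 to 0.111). HBEGF was thus the one member called lower in both lines.

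The other members of BT-549 stayed within small differences. EGFR had -0.05 with its brightest probe (95% interval -0.27 to 0.16) and NRG1 -0.03 (95% interval -0.33 to 0.27), and neither passed the test. ERRFI1 read 12.25, 12.27 and 12.15 on siPRKCD arrays, against 12.16, 11.95 and 11.75 on siControl arrays, and the ranges overlapped by a narrow margin. Its difference of 0.27 was not called (adjusted p = 0.159). The 2 LRIG1 probes differed by 0.20 and 0.07 (adjusted p = 0.368 and 0.738). TGFA and the brightest probe of ERBB3 were not detected in this line. Mesenchymal markers fell in part, with 3 of the 6 measured, CDH2, SPARC and COL1A2, called lower and none higher, where 14.2% of genes were called lower, and the summed signal of the list ranged between 28995 and 31102 on siPRKCD arrays and between 35557 and 36777 on siControl arrays. CDH2 lost its call with neqc and without siPRKCD replicate 1 or siControl replicate 2 (adjusted p 0.0544 to 0.0727). The part of these markers in the ERBB2 and HBEGF results was not tested.

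A separate test asked whether the response to siPRKCD differed between the lines, as the MDA-MB-468 difference minus the BT-549 difference. It was called for 4 of 16 member probes, 1 higher and 3 lower, where 7.6% of all probes were called, 3.94% higher and 3.66% lower. ERRFI1 gave -0.85 (SE 0.18, adjusted p = 0.00938), with -0.59 in MDA-MB-468, which was called, and 0.27 in BT-549, which was not, and this was lost only with median centring (adjusted p = 0.209). ILMN_1707342 of LRIG1 gave -0.61 (SE 0.15, adjusted p = 0.0235), lost with median centring (adjusted p = 0.229) and without MDA-MB-468 siPRKCD replicate 2, BT-549 siPRKCD replicate 2 or BT-549 siControl replicate 1 (adjusted p 0.0531 to 0.0597). The brighter LRIG1 probe gave -0.54 (adjusted p = 0.13, and 0.0812 with the replicate block in MDA-MB-468 alone) and was called with the block over both lines (adjusted p = 0.0317) and without BT-549 siPRKCD replicate 3 (adjusted p = 0.0448).

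ILMN_2083946 of TGFA gave -0.56 (SE 0.14, adjusted p = 0.0218), but the gene was not detected in BT-549 and had no measured level there that could fall. This call was lost with neqc (log2 difference -0.70, SE 0.204, adjusted p = 0.0624) and with median centring (-0.53, SE 0.189, adjusted p = 0.171). It was also lost without MDA-MB-468 siPRKCD replicate 1 or 2, BT-549 siPRKCD replicate 1 or BT-549 siControl replicate 1 (adjusted p 0.0508 to 0.0602). ILMN_1805175 of TGFA gave -0.46 (adjusted p = 0.0999) and was called without MDA-MB-468 siPRKCD replicate 3 (adjusted p = 0.027). ERBB3, with ILMN_1751346, which was not detected in BT-549 either, gave -0.35 (adjusted p = 0.43) and was called without MDA-MB-468 siPRKCD replicate 2 (adjusted p = 0.0303).

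ERBB2 gave 0.69 (SE 0.19, adjusted p = 0.0438), the one member whose fall was larger in BT-549 by this test. It was the weakest of the 4, since the call was lost with neqc, with median centring, with either other filter, and without any 1 of 10 arrays, all but MDA-MB-468 siPRKCD replicate 3 and MDA-MB-468 siControl replicate 1 (adjusted p 0.0516 to 0.107 without an array). With neqc and median centring the difference was larger, at 0.96 (SE 0.295) and 0.80 (SE 0.262), but so was the SE. Where the call was lost without an array, the difference was 0.50 to 0.75. HBEGF gave 0.01 (SE 0.19, 95% interval -0.39 to 0.41, adjusted p = 0.984), and the brightest probe of EGFR 0.02 (95% interval -0.29 to 0.33).

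Ordered by mean signal, each member had its own pattern over the 4 groups. EGFR was highest in both MDA-MB-468 groups, which overlapped, and lowest in both BT-549 groups, which overlapped too. ERBB2 was highest in BT-549 siControl cells, followed by both MDA-MB-468 groups, which overlapped. BT-549 siPRKCD cells had the lowest mean and overlapped MDA-MB-468 siControl cells. HBEGF was highest in BT-549 siControl cells, and BT-549 siPRKCD and MDA-MB-468 siControl cells overlapped above MDA-MB-468 siPRKCD cells. ERRFI1 was highest in both BT-549 groups, which overlapped, then in MDA-MB-468 siControl cells, and lowest in MDA-MB-468 siPRKCD cells, each of the last groups apart from its neighbours. With ILMN_1707342, LRIG1 was highest in MDA-MB-468 siControl cells, and the other 3 groups overlapped.

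For the members called with their brightest probe, the 3 genes with the most similar pattern were found by Pearson correlation over the 12 arrays after the mean of each line had been taken off, among 11458 genes. The 12 points fall into 4 groups, so the change with siPRKCD in each line enters every correlation, and the values are a description only. TGFA lay closest to KRT16, a stress keratin (r = 0.979), VSNL1 (r = 0.973) and DMKN, an epidermal secreted protein (r = 0.968). ERBB2 lay closest to FAAP100 (r = 0.973), ARPC4, a subunit of the actin-nucleating Arp2/3 complex (r = 0.971), and LLGL1, a cell polarity protein (r = 0.970). HBEGF lay closest to GCLM, the regulatory subunit of the enzyme that starts glutathione synthesis (r = 0.973), ZFYVE21 (r = 0.951) and CHPF (r = 0.950). ERRFI1 had less similar genes, with MESP1 at 0.926, DENND11 at 0.918 and TRIM22 at 0.915.

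In MDA-MB-468 few genes of the proteins around the receptors were called with siPRKCD. In BT-549 the called shares of sheddases and adaptors lay near that over all genes. Of all genes read from their brightest probe, 24.8% were called in the MDA-MB-468 comparison and 25% in that of BT-549, with medians of 0.00 and -0.01 on the log2 scale. Of 7 other ERBB receptors and ligands only EGF and BTC were measured, and neither was called with siPRKCD in either line. Of 7 sheddases and their partners, which release the ligands, none was called in MDA-MB-468 (median log2 difference 0.14), while in BT-549 (median -0.10) RHBDF1 and RHBDF2, cofactors of the protease ADAM17, fell by 1.19 and 0.34 on the log2 scale (adjusted p = 0.000444 and 0.0229). Of 9 measured adaptors none was called in MDA-MB-468 (median -0.04), while in BT-549 (median -0.05) SOS1, an exchange factor for RAS, and PTPN11, the phosphatase SHP2, rose by 0.47 and 0.39 (adjusted p = 0.0147 and 0.0096).

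Of 15 genes of receptor endocytosis and degradation, HGS, which sorts receptors at endosomes, rose by 0.52 and the ubiquitin ligase CBL fell by 0.51 in MDA-MB-468 (adjusted p = 0.0323 and 0.0136, median of the list 0.11). In BT-549 CBLB, a relative of CBL, and STAM, a partner of HGS, fell by 0.60 and 0.47 (adjusted p = 0.00502 and 0.0333, median of the list -0.17). The response differed between the lines by 0.92 for HGS (adjusted p = 0.0231) and by -0.49 for PTPN11 (adjusted p = 0.04). Of these calls only those of RHBDF1 and CBLB were kept in every alternative. The replicate block over both lines added calls for ADAM9, at 0.34, and ADAM17, at 0.25, in MDA-MB-468 (adjusted p = 0.0286 and 0.049). The block in MDA-MB-468 alone called neither (adjusted p = 0.0624 and 0.066), and added GRB2, at 0.31, and EPS15, at -0.25, in MDA-MB-468 (adjusted p = 0.0368 and 0.0493), and RHBDF1, SOS1 and STAM in the difference between the lines (adjusted p 0.00571 to 0.0451). Median centring ended the calls of RHBDF2, SOS1, PTPN11, CBL and HGS within a line (adjusted p 0.0589 to 0.236), and neqc those of HGS and STAM (adjusted p = 0.0629 and 0.0892). The call of HGS was lost without siPRKCD replicate 1 or 2 or siControl replicate 3 (adjusted p 0.113 to 0.156), that of CBL without siPRKCD replicate 2 or siControl replicate 3 (adjusted p 0.0598 to 0.0729), that of RHBDF2 without siPRKCD replicate 2 or siControl replicate 2 or 3 (adjusted p 0.0549 to 0.0988), that of STAM without replicate 1 or 2 of either BT-549 group (adjusted p 0.0794 to 0.152), and that of SOS1 without siControl replicate 1 (adjusted p = 0.0649). The difference between the lines was lost without any 1 of 9 arrays for PTPN11 (adjusted p 0.0571 to 0.101) and without any 1 of 4 arrays for HGS (adjusted p 0.0558 to 0.0637).

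Of the genes read from their brightest probe, 61.3% were called between the lines on siPRKCD arrays and 61.5% on siControl arrays. Of 7 sheddase genes 2 were called higher in MDA-MB-468 and 2 lower on siPRKCD arrays, and 1 higher and 2 lower on siControl arrays. Of 9 adaptors 2 were called higher and 3 lower on siPRKCD arrays, and 2 higher and 4 lower on siControl arrays. Of 15 endocytosis genes 5 were called higher and 2 lower on siPRKCD arrays, and 7 higher and 4 lower on siControl arrays. On siControl arrays these shares lay on both sides of that over all genes, and on siPRKCD arrays each lay below it. Whether a list as a whole was set apart was not tested. Single genes differed widely. SHC1, an adaptor that binds phosphorylated ERBB receptors, differed by -3.23 on siPRKCD arrays and -3.14 on siControl arrays (adjusted p = 2.67e-11 and 3.1e-11). STAM differed by -2.06 and -2.75, and ADAM9, a membrane protease, by -1.42 and -1.91. RHBDF2 went the other way, at 1.94 and 1.61, and CBLC, the epithelial relative of CBL, was not detected on any BT-549 array and was at least 2.28-fold and at least 2.75-fold higher in MDA-MB-468. The calls named here for SHC1, STAM, ADAM9 and RHBDF2 were kept in all 21 alternatives.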

How the data were processed

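RNA of BT-549 and MDA-MB-468 cells, each treated with siPRKCD or siControl, was amplified, labelled and hybridised to Illumina HT-12 v4 arrays, 3 per group. The authors deposited a table of bead signal intensity before normalization, with a detection p-value per probe and array, and a table of normalized signal intensity. The scanner software is not given in the sources used here. The deposited signals of all arrays were quantile-normalized and log2-transformed without background correction, and the largest gap to the deposited normalized table was 0.0083 (log2). The lowest deposited signal was 66.24. Of 47323 probes 30113 had a single symbol in the annotation used, 8 had several and 17202 had none. Probes with a detection p under 0.01 on at least 3 arrays were tested (19439 probes), and each of 11459 genes was read from its brightest such probe. Arrays correlated at 0.987 to 0.997 within groups and 0.847 to 0.983 between groups. The number of arrays limits the precision.

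The means of the 4 groups were fitted in a single model with limma 3.58.1 in R 4.3.3 (8 residual degrees of freedom, 6.62 prior), and Benjamini-Hochberg adjusted p-values over all tested probes were called under 0.05. The fit was also run on simulated data with independent noise on each array, whose outcome is not given here. That run did not cover spread shared by same-numbered arrays. An exact permutation test of 3 against 3 arrays cannot go below 0.1. A bound for a probe detected on no array of a group used, per array, the higher of the lowest detected signal and the signal of the probe. The members and gene lists were chosen with earlier results of these data known. Named genes were PRKCD, the members, every measured neighbour of EGFR and up to 4 genes of each other related list with the smallest adjusted p. The 3 genes most like each member called in a siPRKCD comparison were named too.

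The labels number the replicates 1 to 3. Deviations from the group means correlated between same-numbered siPRKCD and siControl arrays at 0.38, 0.33 and 0.54 in MDA-MB-468, where the numbers were taken to pair the arrays, and at 0.30, -0.04 and 0.07 in BT-549, where they were not. Alternatives were neqc, median centring, the deposited normalized table, no filter or detection on all 12 arrays, 1 probe per gene, the arrays of each comparison alone, each array left out in turn and the replicate block. A block in MDA-MB-468 alone was chosen after seeing the data.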

Additional observations from a re-analysis of the deposited data

Results flagged for a closer look

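For 4 member probes the response to siPRKCD differed between the lines by the test of that difference (limma, MDA-MB-468 difference minus BT-549 difference, with adjusted p-values in the text above). The difference was -0.85 on the log2 scale for ERRFI1, -0.61 for LRIG1 with ILMN_1707342, -0.56 for TGFA with ILMN_2083946, which was not detected in BT-549, and 0.69 for ERBB2. The same test was passed by the targeted gene PRKCD, at -0.84 (adjusted p = 0.00488, lost with neqc, 0.359, and with median centring, 0.0718), and by 5 genes of the related lists, PTPN11 at -0.49, HGS at 0.92, KRT5 at -1.68, SPARC at 0.87 and COL1A2 at 0.77. KRT5 was detected on no BT-549 array, and SPARC and COL1A2 on no MDA-MB-468 array, so these had no measured level that could change in that line. In BT-549 siPRKCD cells PRKCD was detected on 1 array of 3, with a mean of 6.86 at the detection limit. Its fall there could not be measured in full, so this test cannot compare the strength of the knockdown between the lines. Groups of 3 arrays were too small for a check of single outlying arrays.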

How the results depend on the processing

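Of 1579 alternative values of the member probes, none turned a called direction, 1523 kept their side of the threshold, 47 lost a call and 9 gained one. Of 5932 values of PRKCD and the list genes, none turned a called direction, 131 lost a call and 82 gained one. Median centring had the largest effect. It left 2 member probes called in MDA-MB-468, 1 in BT-549 and 0 in the difference between lines, and over all probes 2093 of 19439 in MDA-MB-468 against 4207, 2350 in BT-549 against 4184, and 642 in the difference between lines against 1477. The split of all probes into higher and lower calls became 566 and 1784 in BT-549, against 1973 and 2211, and 432 and 210 in the difference between lines, against 765 and 712. Scaling moved no median over all probes by more than 0.1. With neqc, 1 member probe was called in BT-549 and 2 in the difference between lines. With probes detected on all 12 arrays, fewer probes entered, 7 of them members. Then 7 member probes were called between the lines on siControl arrays (7054 of all) and 4 on siPRKCD arrays (7040 of all), and 2 in the difference between lines (688 of all). With 1 probe per gene, where 8 members entered, 3 were called in MDA-MB-468, 8 between the lines on siControl arrays (7138 of all genes) and 6 on siPRKCD arrays (7112 of all genes).

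Without 1 array at a time, called member probes numbered 4 to 7 in MDA-MB-468, 1 to 2 in BT-549, 1 to 5 in the difference between lines, 16 to 16 on siControl arrays between the lines and 12 to 12 on siPRKCD arrays between the lines. Over all probes the counts were 2924 to 4435 in MDA-MB-468, 2750 (without BT-549 siControl replicate 1) to 4523 in BT-549 and 1023 to 1501 in the difference between lines. With the replicate block the call of ILMN_2128795 of LRIG1 was gained in MDA-MB-468 (adjusted p = 0.0278) and in the difference between lines (adjusted p = 0.0317), and no other member call changed. With the block in MDA-MB-468 alone, neither call was gained (adjusted p = 0.0733 and 0.0812). Probes near the detection limit, such as those of TGFA in BT-549, carry bounds only.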
